A study of Mus musculus with 20 samples.

Results

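Brains of 2 mouse lines, J1 lf/lf and J2 lf/lf, were compared by RNA sequencing, with 3 libraries of each among the 20 libraries and 7 groups of the series. The lines were taken by their labels, and all 16063 genes with enough reads to be tested among the 23845 of the tables were ranked by their difference. The J1 lf/lf, J2 lf/lf and Wild type mice are labelled as C57/Bl6J and as fed a normal diet. The other 4 groups are the lines J17a, J17b, J27a and J27b of the same strain. The labels do not spell out the name lf, the sex, the age or the way the alleles were made, and do not state whether the libraries of a group are separate animals. P-values then measure the spread between libraries within groups, pooled over the 7 groups, which may be technical. All 6 libraries have title numbers below 10; what the numbers order is not stated.

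The series title names JNK, the c-Jun N-terminal kinases. These MAP kinases are switched on by upstream kinases that respond to stress and cytokines, and they phosphorylate c-Jun and other AP-1 transcription factors. In neurons they also act on the cytoskeleton, in axon growth and degeneration. Mapk8 encodes JNK1, Mapk9 encodes JNK2 and Mapk10 encodes JNK3, the form most restricted to brain. The comparison sets the lines numbered 1 and 2 against each other. A difference can lie in either line, so Wild type values are given with the libraries of both.

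The 6 libraries held 21395041 to 32372145 estimated counts. Values are CPM, the counts scaled to a common library size with TMM factors, unless given as TPM, a measure per transcript length. Differences are log2 values, J1 lf/lf minus J2 lf/lf, with standard errors (SE) and 95% intervals, from edgeR's quasi-likelihood test with Benjamini-Hochberg adjustment over all tested genes. Summed CPM of 8 general neuron genes ran from 6889 to 7343 in J1 lf/lf, from 6799 to 7416 in J2 lf/lf and from 7246 to 7526 in Wild type libraries, as brain markers were present in every library. Neighbouring tissue differed between libraries and is described with the genes that move with it. Fewer cells of a type and less RNA per cell cannot be told apart in bulk brain. Exact permutation of 3 against 3 libraries cannot give a p below 0.10 for a single gene.

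Mapk9 was low in the libraries labelled J2 lf/lf. Its level was 317, 325 and 308 CPM in J1 lf/lf libraries 1 to 3, against 177, 171 and 58.1 CPM in J2 lf/lf libraries 1 to 3 and 303, 293 and 360 CPM in Wild type. All 3 J2 lf/lf libraries lay below the other 17 libraries of the series, and J2 lf/lf replicate 3 lay far below its fellows. The difference was 1.23 (SE 0.27, interval 0.65 to 1.80) with an adjusted p of 0.165 by edgeR, rank 43 by unadjusted p, so it did not pass the threshold. The DESeq2 Wald test on the same libraries called it, with a difference of 1.23 and an adjusted p of 0.00556. Without J2 lf/lf replicate 3 the difference was 0.86, with an adjusted p of 4.78e-06 by edgeR.

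Mapk8 did not show a matching gap in the libraries labelled J1 lf/lf. It had 122, 118 and 102 CPM in J1 lf/lf, against 104, 107 and 118 CPM in J2 lf/lf and 118, 109 and 140 CPM in Wild type. The 2 lines overlapped, with a difference of 0.06 (interval −0.12 to 0.25, adjusted p = 0.934 by edgeR). Mapk10 had 376, 357 and 342 CPM in J1 lf/lf, against 341, 358 and 391 CPM in J2 lf/lf and 393, 385 and 383 CPM in Wild type. Its difference was −0.02 (interval −0.16 to 0.12, adjusted p = 0.976 by edgeR), which became 0.012 without J1 lf/lf replicate 3 and 0.035 without J2 lf/lf replicate 3. Per transcript length, Mapk9 stood highest of the JNK genes in J1 lf/lf, at 164 ± 8.12 TPM, and second in J2 lf/lf, at 70.7 ± 35.6 TPM (SD, n = 3 each). Mapk10 stood at 118 ± 8.39 TPM in J1 lf/lf and 119 ± 6.91 TPM in J2 lf/lf, and Mapk8 at 47.7 ± 5.48 and 45.5 ± 2.42 TPM in the same lines. In J2 lf/lf replicate 3 alone Mapk9, at 29.5 TPM, stood below Mapk8, at 47.8 TPM. Gene totals do not separate the exon forms of these genes or tell whether a transcript is truncated, so Mapk8 checks the J1 lf/lf label only as far as its total level.

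Across all genes the lines were close. Of 16063 genes, 13 (0.0809%) passed an adjusted p of 0.05, 7 higher in J1 lf/lf (0.0436%) and 6 lower (0.0374%). At an unadjusted p under 0.05 stood 1025 genes (6.38%), 495 higher (3.08%) and 530 lower (3.3%) in J1 lf/lf. The 3 J1 lf/lf and 3 J2 lf/lf libraries did not overlap at 2451 genes (15.3%), with J1 lf/lf above at 1194 (7.43%) and below at 1257 (7.83%). A stricter view sets each line against all 17 other libraries. Some genes meet either criterion for any grouping of libraries, and that share was not estimated. All 3 J2 lf/lf libraries lay outside the range of the other 17 at 89 genes (0.554%), and all 3 J1 lf/lf libraries did so at 34 (0.212%). Of the 13 called genes, 5 had J2 lf/lf outside the other 17 (Gt(ROSA)26Sor, Fn1, Rimklb, Sgk1 and Errfi1) and 0 had J1 lf/lf outside them.

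**Figure D1:**
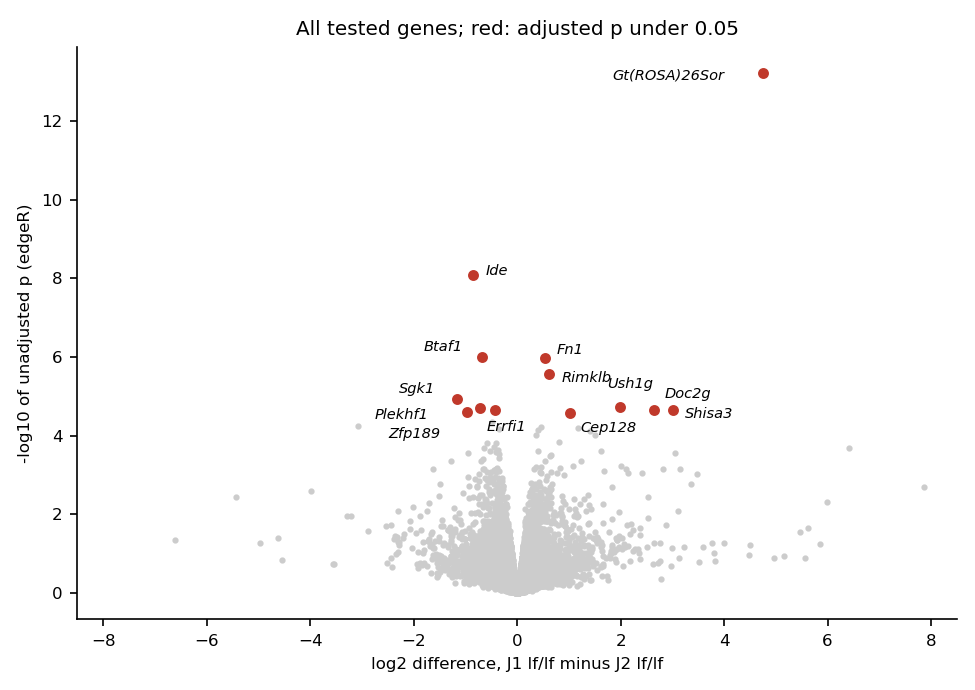
Each point is 1 of 16063 tested genes, with the log2 difference (J1 lf/lf minus J2 lf/lf) on the horizontal axis and −log10 of the unadjusted edgeR p on the vertical axis; red points are the 13 genes with an adjusted p under 0.05. Gt(ROSA)26Sor and Ide stand apart from the other genes, and the red points fall 7 to the right and 6 to the left.

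The widest gap among the called genes was at Gt(ROSA)26Sor, a noncoding RNA of the Rosa26 locus, which is widely used as a site for inserting transgenes. It had 5.23, 5.83 and 5.82 CPM in J1 lf/lf, against 0.195, 0.0825 and 0.310 CPM in J2 lf/lf and 5.70, 3.99 and 5.91 CPM in Wild type. In rounded estimated counts these were 113, 174 and 133 in J1 lf/lf, against 5, 2 and 10 in J2 lf/lf and 167, 135 and 149 in Wild type. Only the 3 J2 lf/lf libraries were low, since the 14 libraries outside the 2 lines ran from 3.99 to 7.14 CPM. The difference was 4.75 (SE 0.28, interval 4.17 to 5.33, adjusted p = 9.69e-10 by edgeR), a 26.9-fold higher level in J1 lf/lf. GENCODE M21 (mm10) places it at chr6:113067428-113077333 on the minus strand as an antisense gene. Thumpd3, a neighbour on that chromosome, had 23.9, 21.2 and 22.9 CPM in J1 lf/lf, against 28.5, 25.1 and 23.1 CPM in J2 lf/lf and 21.97, 18.6 and 27.8 CPM in Wild type, a difference of −0.18 that did not pass the test (adjusted p = 0.871 by edgeR). Whether reads were counted by strand is not known here, so reads of overlapping genes cannot be told apart.

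Ide encodes insulin-degrading enzyme, a protease that cleaves insulin and amyloid beta, and it fell in J1 lf/lf. It had 57.9, 54.2 and 55.1 CPM in J1 lf/lf, against 81.2, 111 and 110 CPM in J2 lf/lf and 113, 109 and 105 CPM in Wild type. The lines did not overlap, and J2 lf/lf replicates 2 and 3 stood at the Wild type level while replicate 1 lay between. The difference was −0.86 (SE 0.09, interval −1.05 to −0.66, adjusted p = 6.53e-05 by edgeR), or 55.2% of the J2 lf/lf level. J17b was as low, at 56.8 ± 6.88 CPM (n = 2), while J17a had 85.0 ± 6.01, J27a 86.3 ± 3.06 and J27b 109 ± 3.03 CPM (SD, n = 3 each). A low Ide level was thus shared by J1 lf/lf and J17b and was not particular to J1 lf/lf.

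Btaf1, which encodes an ATPase that removes the TATA-binding protein from DNA, lies near Ide on chromosome 19 and fell in the same libraries. It had 42.4, 43.5 and 36.7 CPM in J1 lf/lf, against 52.6, 74.3 and 68.9 CPM in J2 lf/lf and 67.6, 66.4 and 62.2 CPM in Wild type. As for Ide, J2 lf/lf replicate 1 was the lowest of its line and J17b was low, at 41.4 ± 3.61 CPM (SD, n = 2). The difference was −0.68 (SE 0.10, adjusted p = 0.00430 by edgeR). It did not pass without J1 lf/lf replicate 3 (adjusted p = 0.0628) or without J2 lf/lf replicate 2 (adjusted p = 0.0761). Cpeb3 and March5, other genes of that region, differed by 0.05 and 0.06 and did not pass the test (adjusted p = 0.921 and 0.911 by edgeR). Within 5 Mb of Ide, 7 of 77 tested genes (9.09%) had an unadjusted p under 0.05, beside 6.38% of all genes. Of the 7, 5 were higher in J1 lf/lf, and 2, Btaf1 and Fgfbp3, were lower as Ide was. Among those higher was Hhex, a homeobox gene, with 1.76, 1.27 and 2.98 CPM in J1 lf/lf, against 0.935, 0.371 and 0.619 CPM in J2 lf/lf and 1.43, 1.03 and 1.11 CPM in Wild type (difference 1.62). Fgfbp3, which encodes a carrier of fibroblast growth factors, had 4.99, 6.24 and 7.75 CPM in J1 lf/lf, against 8.88, 11.1 and 10.4 CPM in J2 lf/lf and 11.5, 8.897 and 5.59 CPM in Wild type (difference −0.68).

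Fn1 and Rimklb rose in J1 lf/lf relative to J2 lf/lf, and at both genes the J2 lf/lf libraries lay below the other 17. Fn1 encodes fibronectin, an extracellular matrix protein made in brain by vascular and meningeal cells. It had 99.9, 109 and 108 CPM in J1 lf/lf, against 68.4, 76.8 and 73.8 CPM in J2 lf/lf and 84.8, 94.8 and 84.3 CPM in Wild type. Wild type lay between the lines, and the difference was 0.53 (SE 0.08, adjusted p = 0.00430 by edgeR). It missed the threshold without J1 lf/lf replicate 3 (adjusted p = 0.0590) and without J2 lf/lf replicate 1 (adjusted p = 0.0519). Col1a2, a fibroblast collagen, had 23.0, 26.4 and 27.7 CPM in J1 lf/lf, against 20.6, 17.4 and 21.8 CPM in J2 lf/lf and 28.9, 28.6 and 19.9 CPM in Wild type, with a difference of 0.36 that was not called. The meningeal fibroblast list had 7 of 8 members above 0 and a median of 0.28, with 0 called, beside a median of 0.00 over all genes; its part in the Fn1 difference was not tested.

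Rimklb encodes an enzyme that joins glutamate to N-acetylaspartate to form the neuropeptide NAAG. It had 28.9, 36.6 and 30.3 CPM in J1 lf/lf, against 21.6, 20.5 and 20.1 CPM in J2 lf/lf and 28.0, 30.4 and 31.3 CPM in Wild type. J1 lf/lf stood at the Wild type level, and the difference was 0.62 (SE 0.10, adjusted p = 0.00863 by edgeR). The call held without J1 lf/lf replicate 1 or replicate 3 and was missed without each of the other 4 libraries, at adjusted p from 0.0518 without J2 lf/lf replicate 1 to 0.0983 without J1 lf/lf replicate 2.

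**Figure D2:**
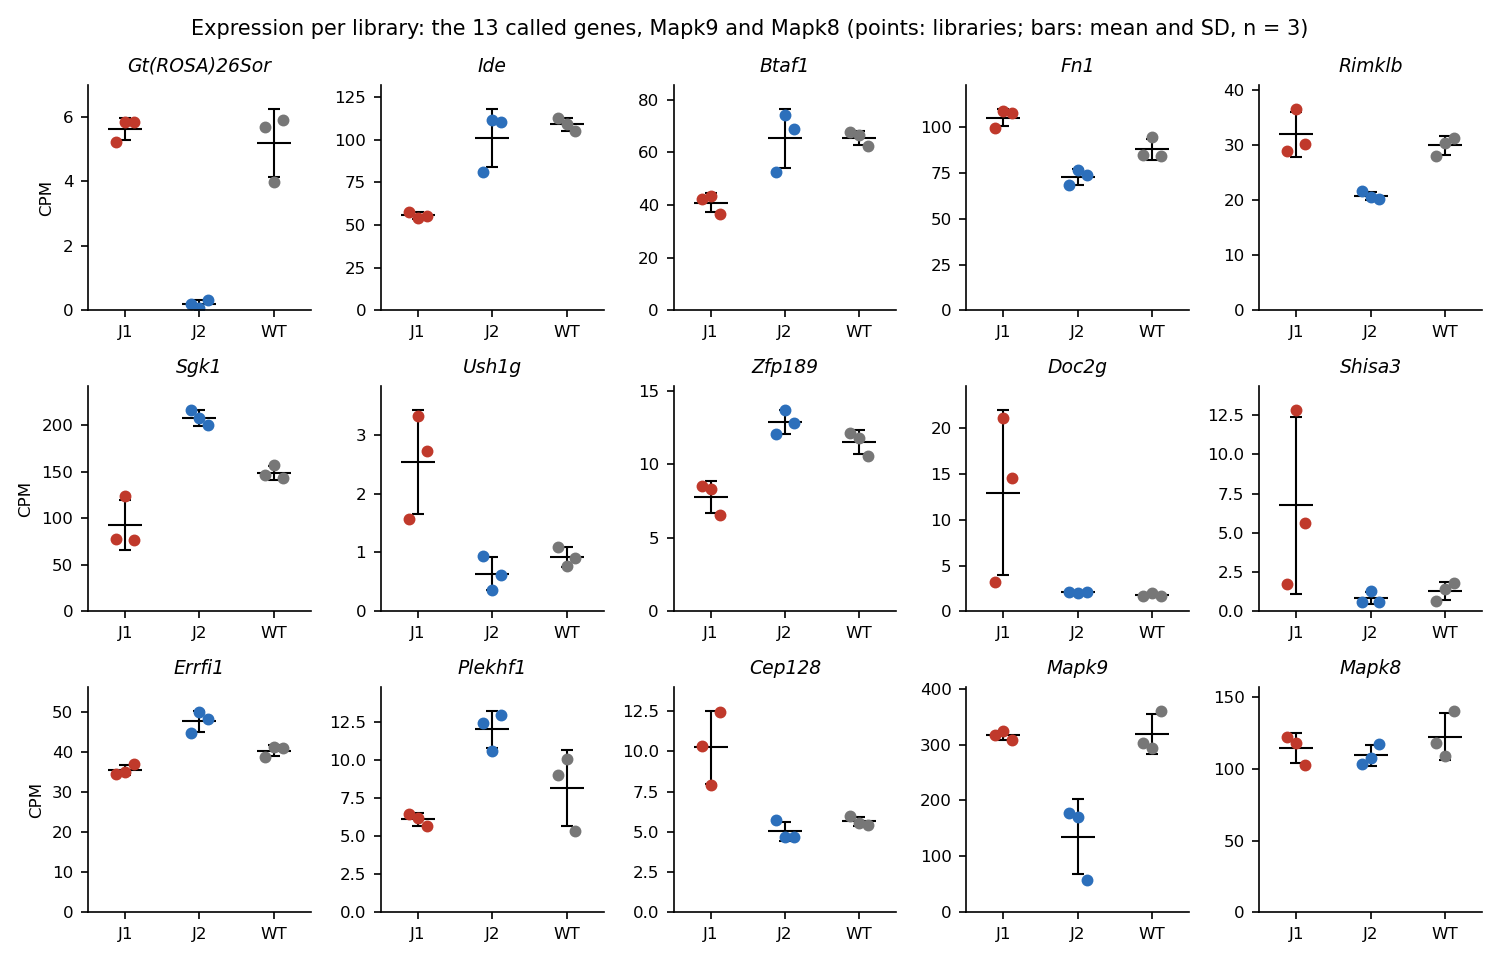
CPM per library for the 13 called genes, Mapk9 and Mapk8, in J1 lf/lf (J1), J2 lf/lf (J2) and Wild type (WT); points are libraries, and the lines are mean and SD, n = 3. Gt(ROSA)26Sor and Mapk9 are low in J2 lf/lf alone of the 3 groups, Ide and Btaf1 are low in J1 lf/lf alone of the 3, and Doc2g and Shisa3 are high in J1 lf/lf libraries 2 and 3.

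Of 14 glucocorticoid response genes 2 were called, beside 0.0809% of all genes, and both fell in J1 lf/lf. Glucocorticoids are adrenal steroid hormones released under stress and with the daily cycle, and their receptor binds DNA at repeated short sites near responsive genes. Sgk1, a kinase induced by these steroids that acts on ion channels and transporters, had 78.1, 124 and 76.7 CPM in J1 lf/lf. Its level was 216, 207 and 199.7 CPM in J2 lf/lf and 146, 157 and 143 CPM in Wild type. Every J1 lf/lf library lay below Wild type and every J2 lf/lf library above all 17 others. The difference was −1.16 (SE 0.19, adjusted p = 0.0321 by edgeR), or 44.7% of the J2 lf/lf level. The call held without J1 lf/lf replicate 2 (adjusted p = 0.0010) and was missed without each of the other 5 libraries, at adjusted p from 0.0615 without J1 lf/lf replicate 1 to 0.142 without J1 lf/lf replicate 3.

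Errfi1 encodes an inhibitor of the EGF receptor. It had 34.6, 34.9 and 36.9 CPM in J1 lf/lf, against 44.7, 49.9 and 48.2 CPM in J2 lf/lf and 38.7, 41.3 and 41.0 CPM in Wild type. The groups were in the same order as for Sgk1 with a smaller gap, −0.42 (SE 0.08, adjusted p = 0.0329 by edgeR), and the call was missed without any 1 of the 6 libraries (adjusted p from 0.0542 without J2 lf/lf replicate 1 to 0.221 without J2 lf/lf replicate 3).

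The list as a whole did not move one way. Beside the 2 called genes, 3 more members were lower at an unadjusted p under 0.05 and 3 were higher, beside 3.3% of all genes lower and 3.08% higher, and the median over the 14 was −0.14. Nfkbia, an inhibitor of NF-kappaB, had 18.5, 22.4 and 19.2 CPM in J1 lf/lf, against 30.01, 37.5 and 30.6 CPM in J2 lf/lf and 20.9, 27.3 and 18.1 CPM in Wild type (difference −0.71, adjusted p = 0.165 by edgeR). Per1, a clock gene that also responds to these steroids, had 71.3, 87.1 and 75.3 CPM in J1 lf/lf, against 102, 122 and 124 CPM in J2 lf/lf and 109, 112 and 78.3 CPM in Wild type (difference −0.57, adjusted p = 0.101 by edgeR). Neither overlapped between the lines. Plin4, a lipid droplet protein, went the other way, with 26.3, 26.3 and 22.8 CPM in J1 lf/lf, against 15.6, 14.6 and 12.2 CPM in J2 lf/lf and 19.5, 27.7 and 17.8 CPM in Wild type (difference 0.83). The metallothioneins Mt1 and Mt2 differed by 0.40 and 0.35. Fkbp5 and Tsc22d3, which are widely used as readouts of glucocorticoid receptor activity, differed by 0.21 and −0.20 and overlapped between the lines. Ddit4, an inhibitor of mTORC1 that is outside the list and was chosen after its values were seen, had 18.6, 27.6 and 29.999 CPM in J1 lf/lf, against 41.7, 48.8 and 40.5 CPM in J2 lf/lf and 31.97, 36.9 and 21.5 CPM in Wild type. All 3 of its J2 lf/lf libraries lay above the other 17, with a difference of −0.78.

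Immediate early genes, which neurons transcribe within minutes of firing, were low in J1 lf/lf relative to J2 lf/lf as a group, with 0 of 16 called. Of the 16, 15 had a difference below 0, 12 had an unadjusted p under 0.05 in that direction, beside 3.3% of all genes, and the median was −0.69, beside 0.00 over all genes. The J1 lf/lf libraries lay below the J2 lf/lf libraries without overlap at 11 of the 16, beside 7.83% of all genes. These genes respond to a shared signal and are not independent measurements. Their summed CPM was 535, 554 and 635 in J1 lf/lf, against 840, 931 and 1209 in J2 lf/lf and 824, 883 and 517 in Wild type. Wild type replicate 3 was thus as low as J1 lf/lf. It stood apart on the first principal component, the main axis of variation among the libraries of these 3 groups. It lay at −39.9 there, and the others ran from −11.5 to 15.9. The J1 lf/lf sums were not outside the Wild type range, but the low end of that range rested on this replicate. Sums of Wild type replicates 1 and 2 lay above all 3 J1 lf/lf sums. The sums were 980, 797 and 1054 in J17a and 580 and 604 in J17b. They were 735, 701 and 1115 in J27a and 618, 685 and 680 in J27b. J17b thus lay within the J1 lf/lf range, and some J17a and J27a libraries lay within the J2 lf/lf range. Neither level was particular to 1 line. The list's median difference ran from −0.57 to −0.88 over the other settings tried, and the 12 became 7 without J2 lf/lf replicate 3, the library with the highest sum, 8 without J1 lf/lf replicate 1 and 8 without J1 lf/lf replicate 2.

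Arc, a synaptic protein that drives removal of glutamate receptors, led the list. It had 45.3, 48.1 and 59.4 CPM in J1 lf/lf, against 124, 136 and 208 CPM in J2 lf/lf and 88.3, 121 and 66.0 CPM in Wild type. All 3 J1 lf/lf libraries lay below all J2 lf/lf and Wild type libraries, with a difference of −1.62 (SE 0.37, adjusted p = 0.198 by edgeR). The zinc finger factor Egr2 had 1.29, 1.91 and 2.19 CPM in J1 lf/lf, against 3.90, 4.62 and 6.75 CPM in J2 lf/lf and 3.31, 3.96 and 3.21 CPM in Wild type (difference −1.50, adjusted p = 0.279 by edgeR). Its relative Egr1 had 138, 139 and 166 CPM in J1 lf/lf, against 213, 223 and 318 CPM in J2 lf/lf and 222, 223 and 121 CPM in Wild type (difference −0.77). The orphan nuclear receptor Nr4a1 had 32.0, 36.6 and 35.3 CPM in J1 lf/lf, against 61.1, 61.3 and 75.8 CPM in J2 lf/lf and 50.1, 50.6 and 32.7 CPM in Wild type (difference −0.93). None of these overlapped between the lines. Fos, the AP-1 subunit most used to mark active neurons, had 7.26, 9.15 and 19.5 CPM in J1 lf/lf, against 19.1, 22.4 and 33.7 CPM in J2 lf/lf and 13.9, 17.5 and 16.7 CPM in Wild type. J1 lf/lf replicate 3 reached into the J2 lf/lf range there, and the difference was −1.07. Dusp1, a phosphatase that switches off JNK and p38, had 19.4, 15.4 and 23.4 CPM in J1 lf/lf, against 27.1, 34.4 and 35.3 CPM in J2 lf/lf and 23.5, 29.4 and 27.99 CPM in Wild type (difference −0.74). Btg2 was the exception, with a difference of 0.02 that turned to −0.38 without J1 lf/lf replicate 3. DESeq2 called Arc and Egr2 (adjusted p = 0.00928 and 0.0356), and edgeR with J1 lf/lf and J2 lf/lf alone in the fit called Nr4a1, Egr2 and Nr4a3 (adjusted p = 6.09e-05, 0.0145 and 0.0366).

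**Figure D3:**
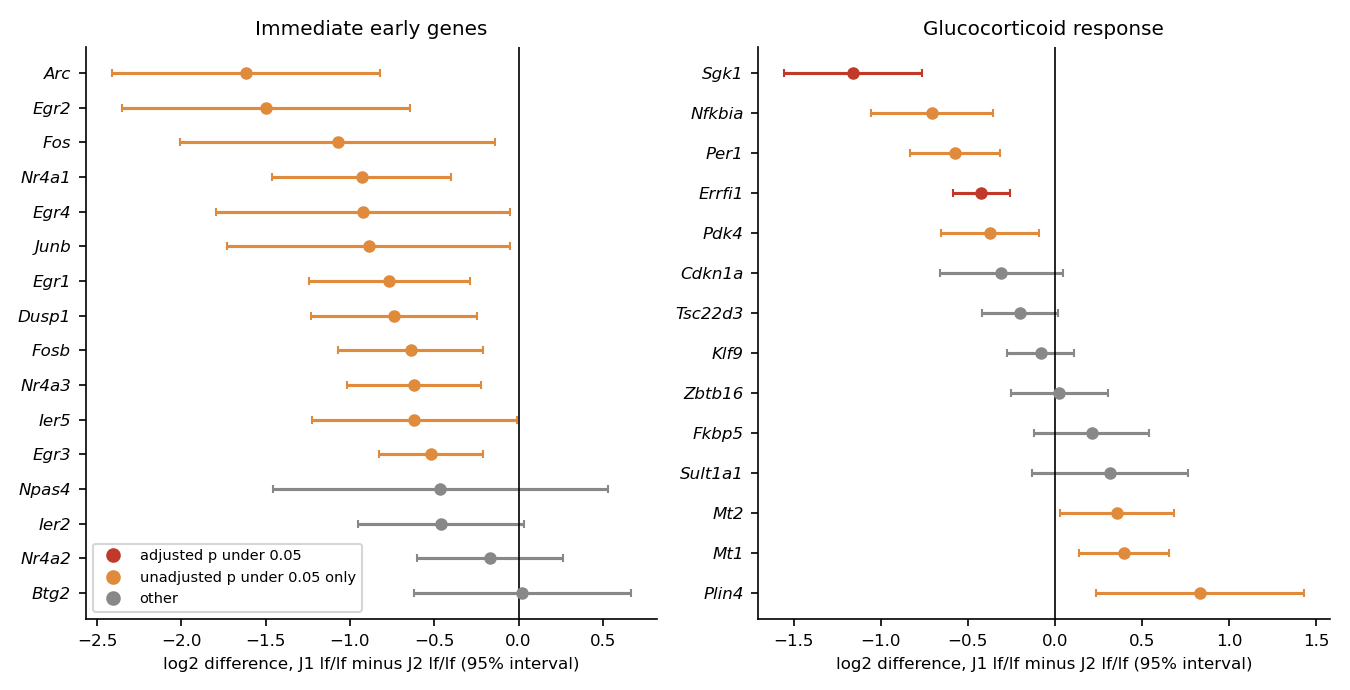
Log2 difference (J1 lf/lf minus J2 lf/lf) with its 95% interval for the 16 immediate early genes, left, and the 14 glucocorticoid response genes, right; red marks an adjusted p under 0.05, orange an unadjusted p under 0.05 only. In the left panel 15 of 16 points lie left of 0 with no red one, and in the right panel 8 of 14 lie left of 0, Sgk1 and Errfi1 in red.

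Markers of forebrain glutamatergic neurons, which express many of these genes, moved a little in the same direction. Their summed CPM was 3483, 3597 and 3468 in J1 lf/lf, against 3468, 4317 and 4342 in J2 lf/lf and 4295, 4232 and 2670 in Wild type. Of 10 members 9 were below 0, and 1 was lower at an unadjusted p under 0.05, beside 3.3% of all genes. It was Cux2, a factor of upper cortical layers (difference −0.38). The list had 0 called and a median of −0.19, beside 0.00 over all genes. The low libraries of Wild type coincide, since replicate 3 had the lowest Wild type sum of both lists. Striatal markers moved further, with 10 of 10 below 0, a median of −0.31, 0 called and 0 with an unadjusted p under 0.05. Striatal sums overlapped between the lines, at 1125, 852 and 1190 CPM in J1 lf/lf and 1663, 1221 and 1031 CPM in J2 lf/lf. Cerebellar markers went the other way, with 10 of 10 above 0, a median of 0.14, 0 called and 0 with an unadjusted p under 0.05. Of all tested genes 50.3% were above 0. The part of neuron content in the immediate early gene difference was not tested.

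Promoter sequences of the 2 called glucocorticoid list genes and of 3 immediate early genes are shown because each holds a short site of a kind that the glucocorticoid receptor, CREB, serum response factor or EGR factors are known to bind. Each line gives the 250 bases before a RefSeq start (GRCm38.p6), 5′ to 3′ on the gene's strand, with the site in capitals. Where several starts were listed (6 for Sgk1, 5 for Egr2, 2 for Errfi1), the window with most kinds of site was taken. Dusp1 and Nr4a1 had 1 listed start each. Sgk1 (chr10:21993640-21993889, plus strand, 1 of 6 listed starts) holds AGAACANNNTGT, the repeat bound by the glucocorticoid receptor, on both strands with overlap, at −189 to −175 from the start. Errfi1 (chr4:150854820-150855069, plus strand) and Dusp1 (chr17:26508473-26508722, minus strand) hold the cyclic AMP response element TGACGTCA, at −51 to −44 and −143 to −136. Egr2 (chr10:67537619-67537868, plus strand) holds a CArG box, the site of serum response factor, at −72 to −63. Nr4a1 (chr15:101266596-101266845, plus strand) holds the EGR site GCGNGGGCG on the opposite strand, at −60 to −52.
Sgk1: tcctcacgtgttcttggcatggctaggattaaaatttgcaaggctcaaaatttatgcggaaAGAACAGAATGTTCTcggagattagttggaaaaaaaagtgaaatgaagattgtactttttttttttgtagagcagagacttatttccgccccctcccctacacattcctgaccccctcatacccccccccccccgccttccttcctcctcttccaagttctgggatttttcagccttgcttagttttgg
Errfi1: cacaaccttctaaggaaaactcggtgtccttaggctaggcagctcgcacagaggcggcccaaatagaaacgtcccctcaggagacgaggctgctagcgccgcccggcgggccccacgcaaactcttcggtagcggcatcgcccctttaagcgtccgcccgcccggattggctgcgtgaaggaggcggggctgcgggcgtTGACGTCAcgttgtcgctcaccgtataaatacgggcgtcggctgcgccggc
Dusp1: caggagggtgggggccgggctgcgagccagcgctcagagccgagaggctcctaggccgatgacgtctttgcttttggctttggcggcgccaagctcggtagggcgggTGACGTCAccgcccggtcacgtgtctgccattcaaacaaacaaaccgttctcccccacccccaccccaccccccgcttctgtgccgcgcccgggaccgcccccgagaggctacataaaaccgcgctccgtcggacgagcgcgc
Egr2: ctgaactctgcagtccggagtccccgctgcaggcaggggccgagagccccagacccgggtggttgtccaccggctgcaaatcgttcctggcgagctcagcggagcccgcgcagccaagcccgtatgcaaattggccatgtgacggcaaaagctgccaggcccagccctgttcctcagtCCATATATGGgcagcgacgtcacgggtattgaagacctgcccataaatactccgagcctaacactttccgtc
Nr4a1: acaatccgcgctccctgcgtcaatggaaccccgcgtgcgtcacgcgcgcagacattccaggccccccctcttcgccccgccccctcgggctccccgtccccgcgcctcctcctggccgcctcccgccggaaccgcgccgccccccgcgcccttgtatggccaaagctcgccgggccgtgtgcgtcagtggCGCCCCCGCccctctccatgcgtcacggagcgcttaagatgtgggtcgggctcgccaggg

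Matches in these windows were counted by gene on both strands, over 12 of the 16 immediate early genes and 13 of the 14 glucocorticoid genes with an entry. Arc and Egr1 are among the immediate early genes without an entry. TGACGTCA was found in 2 of the 12 immediate early genes (16.67%), beside 1.77% of 27025 genes in the table and 2.88% of the tested genes with an entry. Its shorter part TGACG, which every TGACGTCA also contains, was found in 11 of the 12 (91.67%), beside 19.79% of all and 28.55% of tested genes. GCGNGGGCG was found in 4 of the 12 (33.33%), beside 5.33% of all and 9.89% of tested genes, and the CArG box in 1 of the 12 (8.33%), beside 1.62% of all. AGAACANNNTGT was found in 1 of the 13 glucocorticoid genes (7.69%), Sgk1, beside 0.43% of all and 0.32% of tested genes. A match describes the letters of the window only.

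Doc2g and Shisa3, both called as higher in J1 lf/lf, rested on J1 lf/lf libraries 2 and 3. Doc2g, of the double C2 domain family, had 3.24, 21.1 and 14.5 CPM in J1 lf/lf, against 2.07, 2.02 and 2.14 CPM in J2 lf/lf and 1.64, 1.98 and 1.70 CPM in Wild type. Shisa3, a membrane protein that in frog embryos holds back Wnt and FGF receptors, had 1.76, 12.8 and 5.65 CPM in J1 lf/lf, against 0.624, 1.32 and 0.619 CPM in J2 lf/lf and 0.648, 1.42 and 1.82 CPM in Wild type. The differences were 2.65 (SE 0.46) and 3.00 (SE 0.54), both with an adjusted p of 0.0329 by edgeR. They were 0.64 and 1.05 with J1 lf/lf replicates 2 and 3 left out, a fit with 1 J1 lf/lf library whose p is not read here, and each call held only without J1 lf/lf replicate 1 among the 6 fits that left out 1 library. Without J1 lf/lf replicate 2, for example, the adjusted p was 0.116 for Doc2g and 0.203 for Shisa3.

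Markers of the olfactory bulb moved with them. Of 10 markers 7 were above 0, 4 had an unadjusted p under 0.05 as higher in J1 lf/lf, beside 3.08% of all genes, and 1 was called (Doc2g itself), with a median of 0.49. Cdhr1, a cadherin of mitral and tufted cells, had 7.91, 54.3 and 27.9 CPM in J1 lf/lf, against 5.81, 8.5003 and 6.35 CPM in J2 lf/lf and 6.55, 8.45 and 9.04 CPM in Wild type (difference 2.14). Omp, the olfactory marker protein of sensory neurons, had 0.509, 4.69 and 4.16 CPM in J1 lf/lf, against 0.701, 0.248 and 0.372 CPM in J2 lf/lf and 0.375, 0.0887 and 0 CPM in Wild type (difference 2.82). J1 lf/lf replicate 1 lay at the J2 lf/lf level for both. The mitral cell factor Tbx21 had 0.185, 3.52 and 2.45 CPM in J1 lf/lf, against 0.234, 0.206 and 0.155 CPM in J2 lf/lf and 0.0341, 0.118 and 0.0793 CPM in Wild type (difference 3.37). Without J1 lf/lf replicate 1 the list had 3 called genes, and without any 1 of the other 5 libraries it had 0. The part of olfactory bulb content in the Doc2g and Shisa3 differences was not tested.

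**Figure D4:**
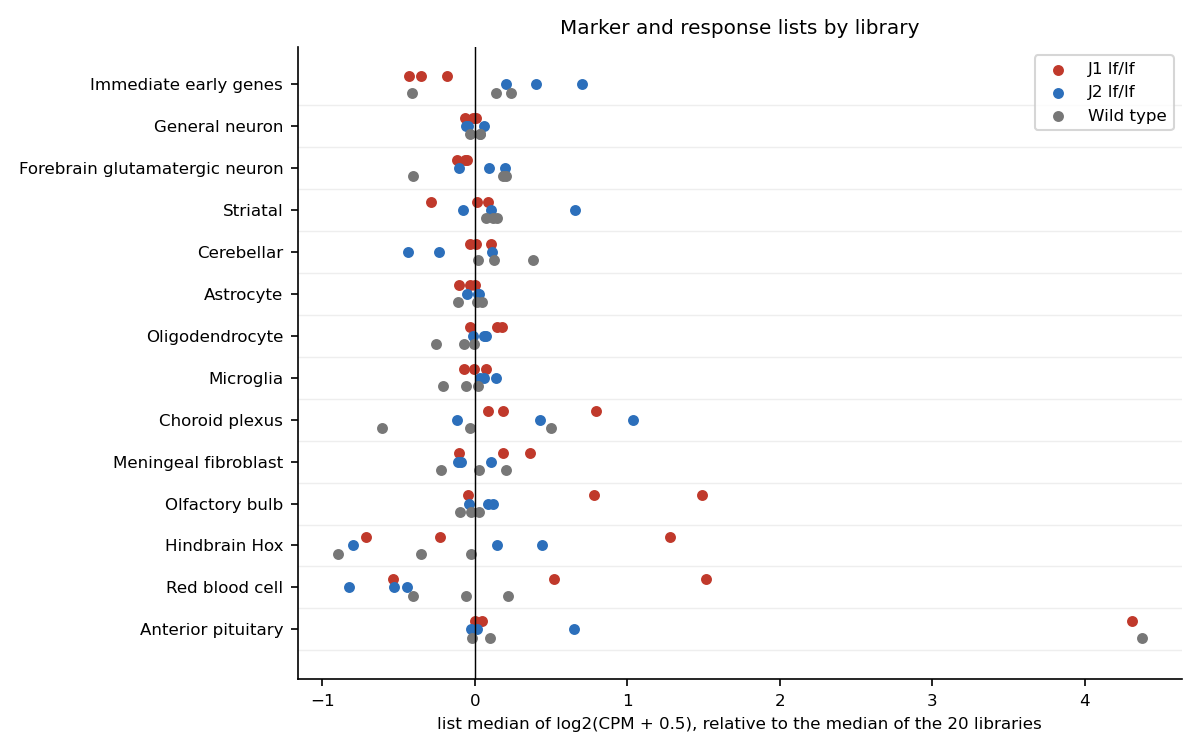
Each point is a library of J1 lf/lf, J2 lf/lf or Wild type, placed at the median over a list of log2(CPM + 0.5) relative to the median of the 20 libraries. General neuron, astrocyte and microglia lists lie close to 0, and the immediate early list splits J1 lf/lf from J2 lf/lf. Among the J1 lf/lf libraries, 2 and 3 (olfactory bulb), 1 (Hox) and 3 (red blood cell, pituitary) stand out. Summed pituitary hormone genes were also high in Wild type replicate 2, so that content was not particular to J1 lf/lf.

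Other neighbouring tissue also differed between libraries. All 5 tested red blood cell genes had an unadjusted p under 0.05 as higher in J1 lf/lf, beside 3.08% of all genes, and 0 were called, with a median of 1.36 that became 0.70 without J1 lf/lf replicate 3, when 3 of the 5 remained under that p; 4 were called without J1 lf/lf replicate 1. Hba-a2, an alpha globin, had 258, 539 and 1076 CPM in J1 lf/lf, against 205, 276 and 247 CPM in J2 lf/lf and 283, 370.4 and 406 CPM in Wild type. J1 lf/lf replicate 1 lay within the J2 lf/lf range, and all 3 J2 lf/lf libraries lay below the 14 libraries outside the lines (283 to 615 CPM). Summed anterior pituitary hormone genes reached 4.72, 8.21 and 3151 CPM in J1 lf/lf, against 1.48, 105 and 3.72 CPM in J2 lf/lf and 2.56, 2129 and 8.999 CPM in Wild type. The pituitary list's median of 4.15 rested on J1 lf/lf replicate 3 and was −3.19 without it. Hox genes, which mark hindbrain and spinal cord, summed to 45.8, 2.88 and 8.63 CPM in J1 lf/lf, against 12.9, 2.97 and 16.6 CPM in J2 lf/lf and 10.7, 2.48 and 5.31 CPM in Wild type, and their median of 0.75 was −1.23 without J1 lf/lf replicate 1. The ribosomal RNA precursor Rn45s, which a poly(A) selection should remove, had 3066, 3570.5 and 5311 CPM in J1 lf/lf, against 5466, 6718 and 6619 CPM in J2 lf/lf and 4487, 6658 and 3582 CPM in Wild type, a difference of −0.65 that was not called. Rn45s made up 0.310% to 0.676% of counts in libraries with title numbers 1 to 10. In those numbered 11 to 21, all among the 17 other libraries, it made up 1.73% to 5.33%. Its part in comparisons with the 17 was not tested.

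The remaining 4 called genes were expressed at low levels. Ush1g, a scaffold of inner ear hair cells, had 1.57, 3.32 and 2.72 CPM in J1 lf/lf, against 0.935, 0.371 and 0.619 CPM in J2 lf/lf and 1.09, 0.768 and 0.912 CPM in Wild type (difference 1.98, SE 0.36, adjusted p = 0.0329 by edgeR). Cep128, a centriole protein, had 10.4, 7.95 and 12.5 CPM in J1 lf/lf, against 5.73, 4.70 and 4.71 CPM in J2 lf/lf and 5.97, 5.56 and 5.43 CPM in Wild type (difference 1.02, SE 0.19, adjusted p = 0.0334 by edgeR). In both genes J1 lf/lf stood above both other groups. Zfp189, a zinc finger factor, had 8.51, 8.28 and 6.53 CPM in J1 lf/lf, against 12.1, 13.7 and 12.8 CPM in J2 lf/lf and 12.1, 11.8 and 10.6 CPM in Wild type (difference −0.72, SE 0.13, adjusted p = 0.0329 by edgeR). Plekhf1, an endosomal and lysosomal protein, had 6.47, 6.20 and 5.65 CPM in J1 lf/lf, against 12.4, 10.6 and 12.9 CPM in J2 lf/lf and 9.01, 10.1 and 5.35 CPM in Wild type (difference −0.97, SE 0.18, adjusted p = 0.0334 by edgeR). Ush1g and Zfp189 held their calls without J1 lf/lf replicate 1 and Cep128 without J1 lf/lf replicate 2. With any other single library left out these calls were missed, and Plekhf1 missed the threshold without each of the 6, from an adjusted p of 0.0527 without J1 lf/lf replicate 1 to 0.244 without J2 lf/lf replicate 3.

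Just outside the threshold stood Irf2bp2, a transcriptional corepressor, with 45.7, 45.3 and 52.4 CPM in J1 lf/lf, against 64.0, 72.5 and 65.4 CPM in J2 lf/lf and 59.1, 66.3 and 48.5 CPM in Wild type (difference −0.49, adjusted p = 0.0529 by edgeR). Next came Itfg2, a subunit of the KICSTOR complex that restrains mTORC1, with 25.2, 27.2 and 26.5 CPM in J1 lf/lf, against 18.7, 19.1 and 19.3 CPM in J2 lf/lf and 25.01, 23.5 and 20.1 CPM in Wild type (difference 0.47, adjusted p = 0.0595 by edgeR). F13a1, a coagulation factor subunit made by macrophages, had 3.14, 4.76 and 3.42 CPM in J1 lf/lf, against 1.64, 2.02 and 1.42 CPM in J2 lf/lf and 3.65, 2.25 and 3.61 CPM in Wild type (difference 1.17, adjusted p = 0.0603 by edgeR). For Itfg2 and F13a1 all J2 lf/lf libraries lay below the other 17. Tshz1, a zinc finger factor needed for olfactory bulb interneurons, had 55.8, 70.7 and 61.7 CPM in J1 lf/lf, above all 17 others, against 47.1, 48.6 and 46.9 CPM in J2 lf/lf and 48.8, 47.4 and 48.7 CPM in Wild type (difference 0.40, adjusted p = 0.0603 by edgeR). Pkd2l1, a channel of neurons that contact cerebrospinal fluid, had 2.82, 3.25 and 2.98 CPM in J1 lf/lf, against 1.13, 1.11 and 1.15 CPM in J2 lf/lf and 1.81, 1.36 and 2.54 CPM in Wild type (difference 1.41, adjusted p = 0.0610 by edgeR).

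Genes of chromosome 6 made up a larger share of the differences than of the tested genes, a view that was chosen after values were seen and has no test. On chromosome 6, 81 of 760 tested genes (10.66%) had an unadjusted p under 0.05, against 898 of 14568 (6.16%) on all other chromosomes. All 3 J2 lf/lf libraries lay outside the other 17 at 13 of the 760 (1.71%), against 73 (0.5%) elsewhere. From 10 Mb before to 20 Mb after the start of Gt(ROSA)26Sor, that gene left out, 31 of 205 genes (15.12%) had an unadjusted p under 0.05 and 9 (4.39%) had J2 lf/lf outside the other 17, while 0 had J1 lf/lf outside. On the rest of the chromosome the counts were 49 of 554 (8.84%) and 3 (0.54%). Shares with an unadjusted p under 0.05 were uneven along the chromosome. Between 0 and 10 Mb after the start they were 22 of 102 genes (21.57%), and between 10 and 20 Mb 7 of 84 (8.33%). Outside that stretch 10 of 49 (20.41%) had such a p between 20 and 30 Mb after the start, 7 of 33 (21.21%) between 110 and 100 Mb before it and 4 of 25 (16%) between 100 and 90 Mb before it. J2 lf/lf lay outside the other 17 at 7 (6.86%), 2 (2.38%), 0, 0 and 0 genes of these 5 stretches in turn. The stretch from −10 to 20 Mb was chosen after values were seen. Neighbouring genes are not independent measurements.

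The 9 genes are of mixed function and went both ways. Higher in J1 lf/lf than J2 lf/lf were Rimklb and Itfg2, above, and Cacna1c, Bid, Ninj2 and Wnk1. Cacna1c, the pore subunit of an L-type calcium channel, had 130, 136 and 130 CPM in J1 lf/lf, against 95.4, 113 and 99.6 CPM in J2 lf/lf and 131, 120 and 122 CPM in Wild type (difference 0.36, adjusted p = 0.0688 by edgeR). Bid, a pro-apoptotic BCL2 family member, had 9.71, 8.31 and 9.28 CPM in J1 lf/lf, against 5.92, 6.15 and 5.26 CPM in J2 lf/lf and 6.55, 8.63 and 8.92 CPM in Wild type (difference 0.66). J1 lf/lf stayed near the Wild type range for both. Ninj2, an adhesion protein, had 1.16, 1.64 and 0.832 CPM in J1 lf/lf, against 0.546, 0.206 and 0.372 CPM in J2 lf/lf and 1.43, 1.63 and 2.299 CPM in Wild type (difference 1.69). Wnk1, a kinase that controls ion cotransport, had 386, 341 and 347 CPM in J1 lf/lf, against 305, 310 and 313 CPM in J2 lf/lf and 341, 356 and 419 CPM in Wild type (difference 0.21). Lower in J1 lf/lf were Slc25a18, a mitochondrial glutamate carrier, with 42.6, 40.4 and 38.1 CPM, against 52.3, 57.3 and 50.4 CPM in J2 lf/lf and 39.98, 39.8 and 42.6 CPM in Wild type (difference −0.40). Tmcc1 and the cell cycle factor Foxm1 differed by −0.18 and −1.04. Of the 9, Rimklb was called.

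**Figure D5:**
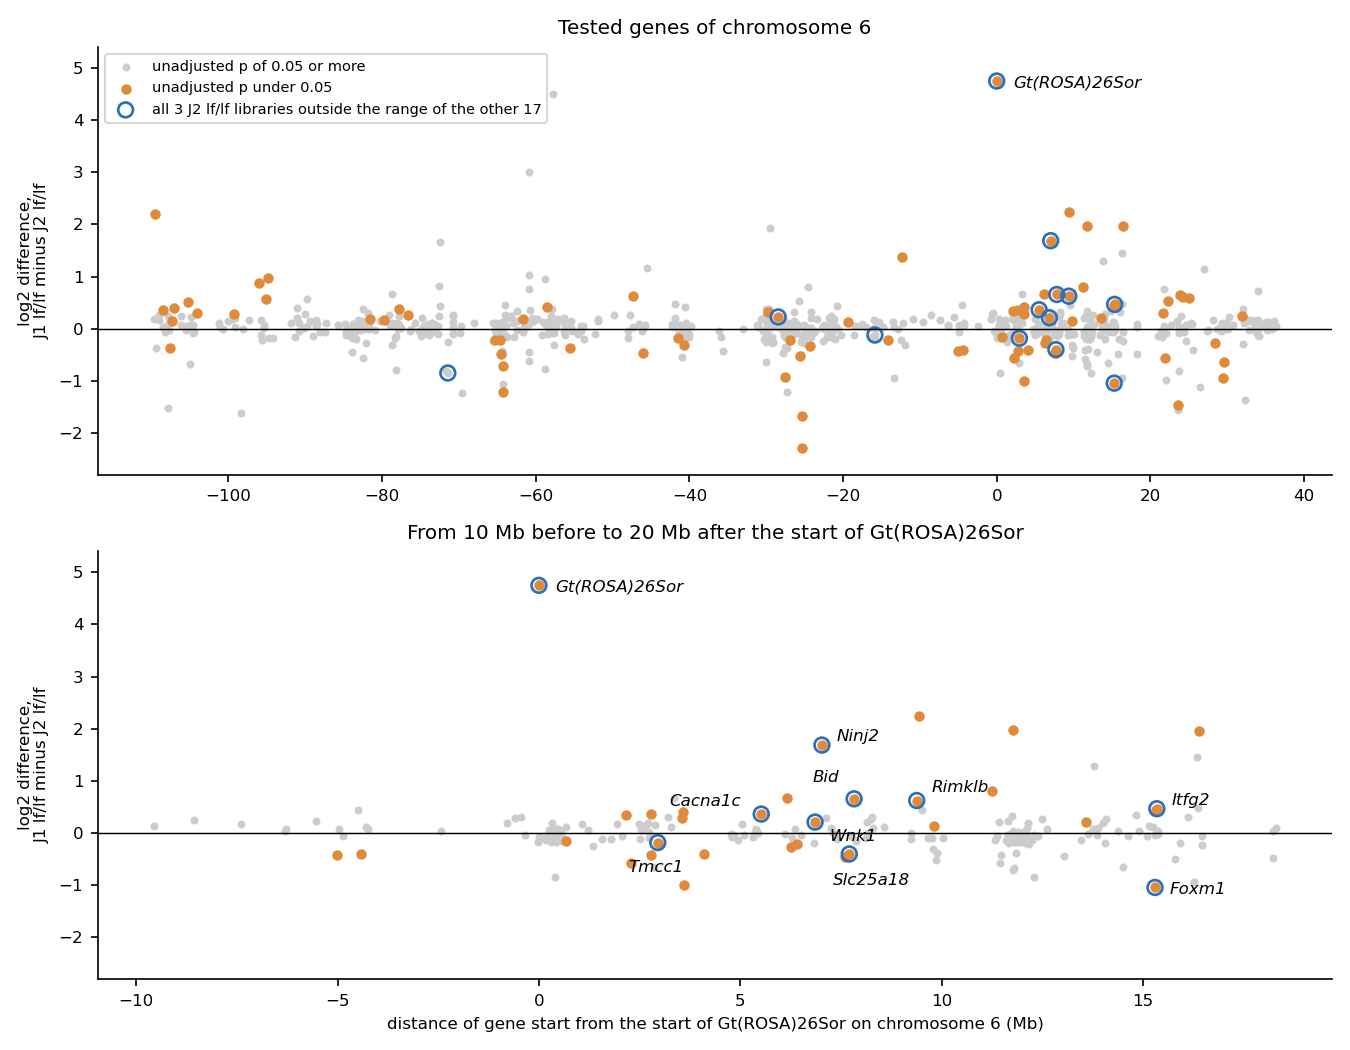
Log2 difference (J1 lf/lf minus J2 lf/lf) of the tested genes of chromosome 6 by distance in Mb from the start of Gt(ROSA)26Sor, whole chromosome above and 10 Mb before to 20 Mb after below; orange marks an unadjusted p under 0.05, and a blue ring all 3 J2 lf/lf libraries outside the other 17. Beside Gt(ROSA)26Sor itself, 9 rings lie in the lower panel and 3 on the rest of the chromosome.

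Counts around the JNK genes were read against the same 6.38% of all genes. Within 5 Mb of Mapk8, 7 of 70 tested genes (10%) had an unadjusted p under 0.05, and within 5 Mb of Mapk9 4 of 86 (4.65%), with 0 called in either window. Within 5 Mb of Gt(ROSA)26Sor the count was 11 of 69 (15.94%).

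Components of the JNK pathway were read against the 3.08% of all genes higher and the 3.3% lower in J1 lf/lf at an unadjusted p under 0.05. Of 21 tested upstream kinases 0 were called, and Map3k1, a kinase that activates JNK through MKK4, had the single unadjusted p under 0.05, with 13.3, 18.9 and 16.1 CPM in J1 lf/lf, against 13.2, 11.3 and 12.3 CPM in J2 lf/lf and 12.1, 11.9 and 12.01 CPM in Wild type (difference 0.40). The 8 scaffold genes had 0 at that level. Among 10 MAP kinase phosphatases 3 were at that level, with 0 called: Dusp1 and Dusp6 were lower at an unadjusted p under 0.05 and Dusp16 was higher (differences −0.74, −0.54 and 0.29). Of 12 AP-1 and ATF factors, 0 were called and 4 had an unadjusted p under 0.05, all lower in J1 lf/lf: Fos, Fosb, Junb and Fosl2. No AP-1 factor was higher at that level, beside 3.3% of all genes lower and 3.08% higher. This list shares Fos, Fosb and Junb with the immediate early list. Jun, the factor JNK is named for, had 61.0, 58.9 and 59.6 CPM in J1 lf/lf, against 62.3, 63.6 and 45.8 CPM in J2 lf/lf and 68.4, 68.04 and 51.3 CPM in Wild type, and its difference of 0.07 was −0.073 without J2 lf/lf replicate 3. Of 14 cytoskeletal substrates, Nefh, the heavy neurofilament, alone had an unadjusted p under 0.05 (difference 0.32).

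In the metabolic and hormone lists a few members had an unadjusted p under 0.05, beside 3.08% of all genes higher and 3.3% lower in J1 lf/lf. Of 20 insulin and IGF signalling genes, Ide was called and Irs2, an insulin receptor substrate, had 64.7, 77.0 and 72.6 CPM in J1 lf/lf, against 81.6, 94.3 and 101 CPM in J2 lf/lf and 86.8, 87.8 and 54.1 CPM in Wild type (difference −0.37, not called). Of 16 amyloid genes Ide was again the called one. Of 19 cholesterol synthesis genes 0 were called, 1 was higher and 2 were lower at that p, and Mvd, a mevalonate pathway enzyme, had 12.7, 12.9 and 14.4 CPM in J1 lf/lf, against 19.5, 17.9 and 21.2 CPM in J2 lf/lf and 16.4, 16.9 and 8.68 CPM in Wild type. All 3 J2 lf/lf libraries of Mvd lay above the other 17 (difference −0.55). Of 10 thyroid hormone genes 9 were below 0 with 0 called and 2 lower at that p, and Dio2, which makes active thyroid hormone in glia, differed by −0.31. Among 15 clock genes 0 were called, 1 was higher and 2, Per1 and Arntl, were lower at that p. Arntl, which encodes BMAL1, had 22.1, 22.4 and 21.5 CPM in J1 lf/lf, against 27.4, 27.8 and 29.0 CPM in J2 lf/lf and 29.4, 27.3 and 31.9 CPM in Wild type, and Per3 had 41.9, 39.2 and 43.3 CPM in J1 lf/lf, against 30.8, 33.8 and 38.6 CPM in J2 lf/lf and 35.2, 33.7 and 36.2 CPM in Wild type. The lines did not overlap at either gene (differences −0.35 and 0.27), and the hour of sampling is not given in the labels. The 21 respiratory chain genes and 20 glutamate and GABA receptor genes each had 0 members with an unadjusted p under 0.05 (medians 0.02 and 0.07).

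Glial marker lists had medians near that of all genes. Of 8 astrocyte, 10 oligodendrocyte and 10 microglial markers 0 were called, with medians of 0.02, 0.03 and −0.10. The 10 microglial differences were all below 0, and 0 had an unadjusted p under 0.05. Of the 10 oligodendrocyte differences 6 were above 0 and 4 below. J1 lf/lf lay above J2 lf/lf without overlap at 3 of these 10 and below at 0, beside 7.43% and 7.83% of all genes. The myelin genes Mobp and Cldn11 had J1 lf/lf above all 17 other libraries (differences 0.19 and 0.12, not called). All 3 J1 lf/lf libraries lay outside the other 17 at 0.212% of all genes. Mal, a myelin protein, had 344, 335 and 338 CPM in J1 lf/lf, above all 17 other libraries, against 285, 258 and 251 CPM in J2 lf/lf and 246, 291 and 329.7 CPM in Wild type (difference 0.36). The list of 10 endothelial and mural markers went both ways, with 4 above 0, a median of −0.03, 0 called and 2 lower in J1 lf/lf at an unadjusted p under 0.05, beside 3.3% of all genes. Rgs5, a regulator of G protein signalling, had 30.2, 21.1 and 20.98 CPM in J1 lf/lf, against 30.3, 37.0 and 41.0 CPM in J2 lf/lf and 27.2, 29.6 and 36.7 CPM in Wild type (difference −0.59). Kcnj8 and Abcc9, which are outside that list and are the subunits of the vascular ATP-sensitive potassium channel, are neighbours on chromosome 6. Kcnj8 had 3.14, 2.85 and 2.19 CPM in J1 lf/lf, against 5.81, 4.66 and 5.33 CPM in J2 lf/lf and 2.52, 3.28 and 3.81 CPM in Wild type (difference −0.95). Abcc9 had 10.9, 8.41 and 10.9 CPM in J1 lf/lf, against 13.6, 15.1 and 17.7 CPM in J2 lf/lf and 10.8, 10.8 and 17.9 CPM in Wild type (difference −0.63). The lines did not overlap at either channel gene, with an adjusted p of 0.130 for Kcnj8 and 0.198 for Abcc9 by edgeR. DESeq2 called Kcnj8 (adjusted p = 0.0167) and Abcc9 (adjusted p = 0.0440), as did the edgeR fit of J1 lf/lf and J2 lf/lf alone (0.0498 and 0.0472).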

How the data were processed

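Poly(A)-selected mouse brain RNA (RNeasy, DNase I) was sequenced as 150 bp pairs on a NovaSeq6000, per the labels' protocols. The authors deposited estimated counts per gene, made with RSEM after cutadapt on mm10 per the submitters' processing notes, and 4.11% of these were not whole. The deposited TPM values come from the same runs, per the labels. Not given in the sources used here are tool versions, the annotation and whether strand was used.

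Rounded estimated counts entered edgeR 4.0.16 under R 4.3.3, with filterByExpr, TMM factors of 0.975 to 1.03 and robust quasi-likelihood fits with all 20 libraries in 1 model (biological coefficient of variation 0.120). The contrast was J1 lf/lf minus J2 lf/lf, two-sided, with Benjamini-Hochberg adjustment over 16063 genes and a threshold of 0.05. Of 23845 genes, 4425 were at 0 in every library. DESeq2 1.42.0, limma 3.58.1 on log2 TPM with a pseudocount, no filter, fewer groups, a replicate block and left-out libraries were alternatives. The steps were also run on simulated counts drawn gene by gene. These held no shared tissue content and no outlying library, so the run does not bear on either. Positions come from GENCODE M21 and promoters from RefSeq (GRCm38.p6).

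Genes named are the called ones, those of lowest p or widest gap without overlap, the JNK and substrain genes, the leading members of 45 lists and neighbours of Mapk8, Mapk9, Ide and Gt(ROSA)26Sor. Other names, and other list members, were chosen after their values were seen. Members and lists were chosen with earlier results of these data known.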

Additional observations from a re-analysis of the deposited data

How the results depend on the processing

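The count of 13 called genes was 13 with DESeq2 size factors, 14 without a filter (12 shared) and 13 without Rn45s. It was 73 with the DESeq2 Wald test (13 shared, 40 higher and 33 lower), 80 with only J1 lf/lf and J2 lf/lf fitted (10 shared, 22 higher and 58 lower), 3 with Wild type added to those and 6 with limma at either pseudocount. Leaving out 1 library gave 3 to 29 calls, 29 being without J1 lf/lf replicate 1 (23 higher, 6 lower). Leaving out replicate 3 of both lines gave 3, and J1 lf/lf replicates 2 and 3 gave 1; both were added after seeing the data. Gt(ROSA)26Sor was called in all 17 alternatives, and Ide in 16, missing with J1 lf/lf replicates 2 and 3 out (adjusted p = 0.156 by edgeR), a fit in which the lone J1 lf/lf library is assumed to vary like the other groups. The causes were not tested.

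Replicate numbers did not pair the samples (correlations 0.05, 0.02 and −0.09), and the fit with a replicate block called 10 genes, all among the 13.

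Over 124 genes and all alternatives, 1892 of 2098 values kept direction and side, 104 lost and 75 gained a call and 27 turned: these are differences near 0, neighbouring tissue genes and red blood cell genes. Leaving out 1 library gave −0.064 to 0.035 for Mapk10, −0.38 to 0.20 for Btg2, −0.073 to 0.15 for Jun, −0.50 to 0.51 for Th, −0.65 to 0.18 for Ttr, −3.10 to 11.6 for Gh, −1.85 to 11.1 for Prl and −1.55 to 5.18 for Pomc. Without replicate 3 of both lines the values were 0.067 for Mapk10, −0.50 for Btg2, −0.071 for Jun, −3.70 for Gh, −2.48 for Prl and −2.02 for Pomc. Without J1 lf/lf replicates 2 and 3 they were 0.047 for Mapk10, −0.42 for Btg2, −3.78 for Gh, −2.11 for Prl, −1.93 for Pomc, −0.21 for Hbb-bt and −0.22 for Alas2. Btg2 was also −0.031 with the block and −0.033 and −0.040 with limma. Tbx21 could not be fitted where it fell under the filter. Low counts limit Gt(ROSA)26Sor in J2 lf/lf (5, 2 and 10 reads).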
